A study of Homo sapiens with 8 samples.

Results

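Cyclic dinucleotides such as c-di-GMP are charged and pass cell membranes poorly, so that the proteins that carry them across decide how much reaches STING, the adaptor that binds them in the cytosol. The 9 genes described here encode such proteins. They are 3 importers (SLC19A1, SLC46A1 and SLC46A3), the 5 subunits of the LRRC8 channels (LRRC8A to LRRC8E) and the exporter ABCC1. They were chosen by name, all 9 were found in the deposited count table of 16383 genes, and all 9 passed the filter on low counts. Gene expression had been measured by RNA sequencing of total RNA from MDA-MB-231, an established triple-negative human breast cancer line, grown in DMEM with antibiotics and 10% fetal bovine serum. There were 4 libraries of cells given 5 µM c-di-GMP for 24 h and 4 libraries of cells given phosphate-buffered saline as the vehicle for the same time. Both groups were the same line with no other treatment named. Nothing in the labels states that replicate libraries were separate cultures, so the p-values reflect only library-to-library spread, which may be technical. In such bulk RNA, fewer cells that express a gene and less RNA per cell cannot be told apart.

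As background, SLC19A1 is the reduced folate carrier and also brings cyclic dinucleotides into cells, SLC46A1 is the proton-coupled folate transporter, and SLC46A3 is a related carrier found on lysosomes. The LRRC8 proteins form the volume-regulated anion channel, which opens when a cell swells. LRRC8A is needed in every working channel, and the partner subunits set what passes through it, with LRRC8C and LRRC8E linked to the passage of cyclic GMP-AMP, the mammalian cyclic dinucleotide, and LRRC8D to that of uncharged osmolytes and some drugs. ABCC1, also called MRP1, is a pump driven by ATP that exports many conjugated compounds and also cyclic GMP-AMP.

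The libraries held 16151360 to 18040010 counts, so that 3 counts, the limit that a count of 0 allows, corresponded to 0.166 to 0.186 CPM (counts scaled to a common library total), which covers counting error only. These limits use library totals alone. Other CPM values below, except those per kilobase, are further scaled by TMM factors. Vehicle replicate 3 was unlike the other 7 libraries: 465 listed genes had no count in it, against 2 to 9 elsewhere, and the genes in the lowest quartile of length took 28.4% of its counts, against 13.8% to 15.6%. Fold changes are therefore given with the 7 libraries left when it is set aside and with all 8. All 5 markers listed for a mesenchymal line were present, with VIM at 116 to 148 FPKM (fragments scaled to transcript length and library size) and AXL at 206 to 241 FPKM in the 7 libraries, and CDH1, the epithelial cadherin, was at 0.299 to 0.628 FPKM. EPCAM and the keratins KRT8, KRT18 and KRT19 were also present, and all of these 4 were higher in vehicle replicate 3, where EPCAM stood at 22.5 FPKM against 4.36 to 5.94 FPKM. The estrogen receptor gene ESR1 and the immune markers PTPRC, CD3E and CD68 were not among the listed genes, while the immune LYZ, the endothelial CDH5 and the fibroblast COL1A2 were in the count table only, and the endothelial PECAM1 and the fibroblast COL1A1 were at 1.03 to 1.24 and 1.61 to 2.17 FPKM in the 7 libraries. The part of these markers in the results below was not tested.

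The levels of the 9 genes per length of exon model covered a wide range, with LRRC8A at the top and SLC19A1 at the bottom. LRRC8A stood at 34.8 ± 2.08 CPM per kilobase of exon model (SD, n = 7), ABCC1 at 16.1 ± 1.03, LRRC8D at 7.19 ± 0.319 and LRRC8C at 3.27 ± 0.205. Below them were SLC46A3 at 2.36 ± 0.0781, LRRC8B at 1.08 ± 0.150, SLC46A1 at 0.920 ± 0.0818, LRRC8E at 0.423 ± 0.0782 and SLC19A1 at 0.238 ± 0.0668 (SD, n = 7 for each). The main subunit of the channel and the exporter were thus far above all 3 importers. In each of the 7 libraries every gene stood above the next in this order, but the ranges over the libraries overlapped for LRRC8B and SLC46A1 and for LRRC8E and SLC19A1. The last place of SLC19A1 depends on the length used, and so does the place of LRRC8B above SLC46A1. The exon model of SLC19A1 has 9998 bases and its longest transcript 3811, against 4329 and 3743 for LRRC8E. For LRRC8B these lengths are 8213 and 8034 bases, against 7838 and 6376 for SLC46A1. An order by longest transcript was not computed. LRRC8A was 2.17 times as high as ABCC1, and LRRC8C was 1.39 times as high as SLC46A3. The deposited FPKM values gave the same order for the 8 genes that they list. Ratios between genes were nearly the same in both measures, with LRRC8A at 2.17 times ABCC1 in each. The FPKM order is therefore no separate check. SLC19A1 is not among the 16383 genes of that table.

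**Figure D1:**
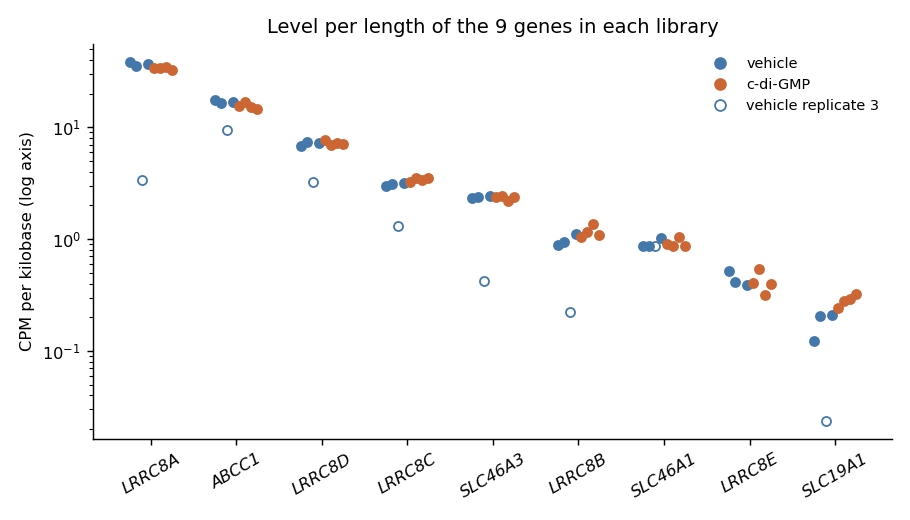
Level per length of each of the 9 genes in each library, as CPM per kilobase on a log axis, ordered by the mean of the 7 libraries; filled points are vehicle (blue) and c-di-GMP (orange) libraries, and open points are vehicle replicate 3. LRRC8A lies at 32.3 to 38.3 in the 7 libraries and SLC19A1 at 0.124 to 0.325; LRRC8E had 0 counts in vehicle replicate 3 and has no point there.

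Vehicle replicate 3 was low for most of these genes. LRRC8E had 0 counts in it, so that no difference is given for that gene. Against the mean of the other vehicle libraries its log2 CPM differed by -2.82 for LRRC8A, -1.94 for SLC19A1, -1.81 for SLC46A3 and -1.46 for LRRC8B. LRRC8C, LRRC8D and ABCC1 differed by less, at -0.60, -0.53 and -0.20, and SLC46A1 was higher by 0.53. The median over all tested genes was -0.13 with an SD of 1.57, and 8 of the 9 genes lay below it. LRRC8A lay at the 4.87th percentile of all tested genes. How SLC46A1 and ABCC1 looked in this library depended on the scaling. Per kilobase and library total, SLC46A1 stood at 0.862, within the 0.858 to 1.05 of the other libraries, but by deposited FPKM it stood at 1.26, above their 0.803 to 0.992. ABCC1 stood at 9.53 CPM per kilobase, under the 14.6 to 17.5 of the others, but at 13.9 FPKM, within their 13.7 to 16.4.

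With all 8 libraries none of the 9 genes was called, as none of 15415 genes was (0%) by edgeR's quasi-likelihood test at an adjusted p under 0.05. At an unadjusted p under 0.05 there were 960 genes (6.23%) and 0 of the 9. DESeq2 called 106 genes and limma-voom 0, and neither called any of the 9, although DESeq2 gave no adjusted p for SLC19A1 and LRRC8E. Without vehicle replicate 3, edgeR called 3 of the 9 genes (33.3%): SLC19A1 rose, and LRRC8A and ABCC1 fell. Of all 15647 genes tested there, 29.6% were called, 13.5% higher and 16.2% lower, so that the count among the 9 is no result about these genes. The median log2 fold change of the 9 was 0.01, against 0.00140 for all genes. In these 7 libraries fold changes followed the GC content of transcripts, and when the GC trend of each library was taken out (GC-corrected below), 1 of the 9 (11.1%) was called, SLC19A1, against a background of 15.2%, 8.59% higher and 6.62% lower. The groups of the 7 libraries did not overlap for 3 of the 9 genes, against 35.7% of all genes, and for 2 GC-corrected, against 23.5%. With all 8 libraries they did not overlap for 2, SLC19A1 and LRRC8C, against 14.2%.

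**Figure D2:**
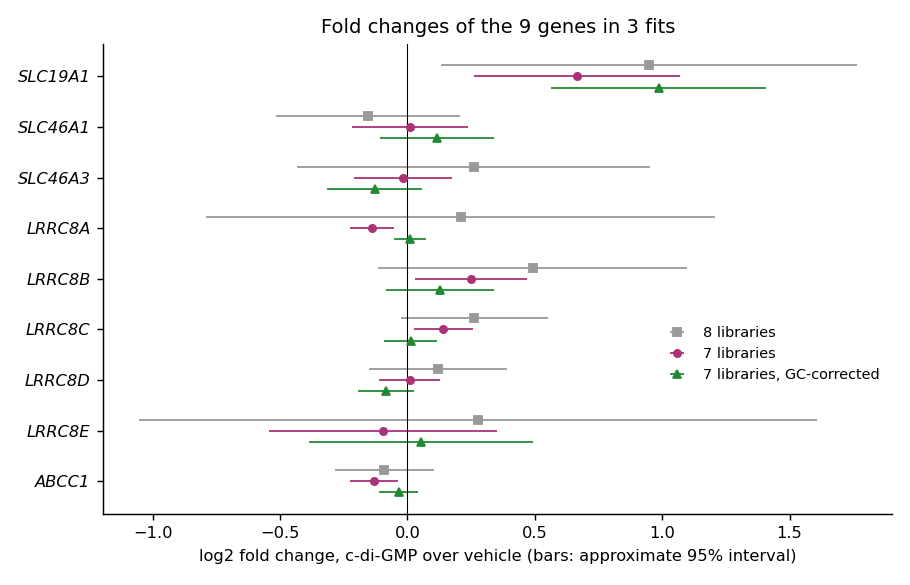
Log2 fold change of c-di-GMP over vehicle for the 9 genes (points) with approximate 95% intervals (bars), from the fit of all 8 libraries (grey squares), of the 7 libraries without vehicle replicate 3 (purple circles) and of the same 7 with the GC trend taken out (green triangles). SLC19A1 lies right of 0 in all 3 fits, while LRRC8A lies at 0.21, -0.14 and 0.01. The bars are not the test: with 8 libraries that of SLC19A1 runs from 0.13 to 1.76, but the gene was not called (edgeR adjusted p = 0.623).

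Among the importers, SLC19A1 was higher with c-di-GMP and the pair of SLC46 carriers was not called. SLC19A1 (ENSG00000173638, GRCh38 chromosome 21, 45493572 to 45544411, minus strand) had 22, 37 and 36 counts in vehicle replicates 1, 2 and 4 and 39, 48, 51 and 57 counts in c-di-GMP replicates 1 to 4. All c-di-GMP libraries were above all vehicle libraries, the nearest of them by only 2 counts. Vehicle replicate 3 had 4 counts. After scaling, the vehicle libraries averaged 1.78 ± 0.464 CPM (SD, n = 3) and the c-di-GMP libraries averaged 2.83 ± 0.340 CPM (SD, n = 4). SLC19A1 thus rose by 0.67 ± 0.21 on the log2 scale (SE; edgeR adjusted p = 0.0169). GC-corrected it was 0.99 ± 0.21, with an approximate 95% interval from 0.56 to 1.41 (edgeR adjusted p = 0.00220), and over all 8 libraries it was 0.95 ± 0.42 (edgeR adjusted p = 0.623). The uncorrected call was lost without vehicle replicate 1 (0.47, edgeR adjusted p = 0.136) and without c-di-GMP replicate 4 (0.59, edgeR adjusted p = 0.0586). GC-corrected, the call held without any single one of the 7 libraries, at 0.72 to 1.14.

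The rise of SLC19A1 ran against the GC trend. Its longest transcript has a GC content of 64.4%, and the 1144 tested genes within 2.5 points of it had a median log2 fold change of -0.32 (quartiles -0.44 and -0.20) before correction. SLC19A1 overlaps another gene, and how strand was treated in the counting is not given in the sources used here. Of its 9998 exonic bases, 1401 (14.0%) lie under exons of COL18A1 (chromosome 21, 45405137 to 45513720, plus strand), the gene of a basement membrane collagen, so that reads there cannot be told apart without strand. COL18A1 had 3539, 2807 and 2987 counts in vehicle replicates 1, 2 and 4, 539 in vehicle replicate 3, and 1838, 1909, 1932 and 1916 with c-di-GMP. It fell by 0.67 ± 0.06 on the log2 scale (-0.26 ± 0.04 GC-corrected; edgeR adjusted p = 2.73e-08 and 1.16e-05) and stood at -0.38 ± 0.36 over all 8 libraries, where it was not called. COL18A1, with far more counts, thus moved the other way in the 7 libraries, and its part in the counts of SLC19A1 was not tested. SLC19A1 is therefore reported as uncertain.

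**Figure D3:**
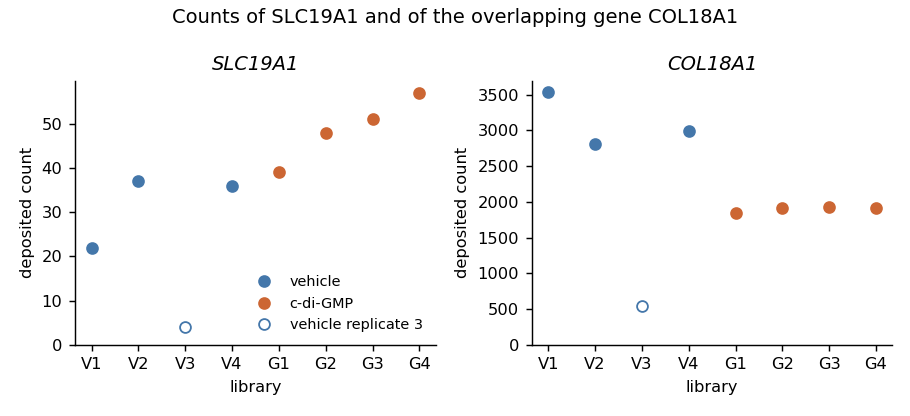
Deposited counts of SLC19A1 (left) and of COL18A1, whose exons overlap it on the opposite strand (right), in the vehicle (V1 to V4, blue) and c-di-GMP (G1 to G4, orange) libraries, with vehicle replicate 3 as an open point. SLC19A1 had 39 to 57 counts with c-di-GMP, above 22 to 37 in the other vehicle libraries, and COL18A1 had 1838 to 1932, below 2807 to 3539.

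The promoter windows of SLC19A1, LRRC8A and LRRC8C are shown because these are the importer that was called in both fits of the 7 libraries, the most abundant subunit, and a subunit whose window is shared with a divergent transcript. Each runs from 250 bases before to 50 bases after a start in RefSeq (GRCh38.p14), read 5′ to 3′ on the gene's strand, with GC boxes (GGGCGG on either strand, a binding sequence of SP1) in capitals. The starts are the RefSeq starts nearest to those in the deposited tables. RefSeq has 4 starts for SLC19A1, the nearest of them 1971 bases from the deposited gene start, and the data do not say which was used. The windows are chr21:45542391-45542690 (minus strand), chr9:128881883-128882182 (plus strand) and chr1:89632870-89633169 (plus strand).
SLC19A1: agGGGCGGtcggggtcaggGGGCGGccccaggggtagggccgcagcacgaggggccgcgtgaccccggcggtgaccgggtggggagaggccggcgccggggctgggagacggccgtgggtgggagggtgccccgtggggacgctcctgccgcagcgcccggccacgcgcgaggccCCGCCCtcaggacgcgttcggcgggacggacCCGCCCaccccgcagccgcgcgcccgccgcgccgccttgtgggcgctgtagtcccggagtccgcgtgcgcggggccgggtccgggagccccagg
LRRC8A: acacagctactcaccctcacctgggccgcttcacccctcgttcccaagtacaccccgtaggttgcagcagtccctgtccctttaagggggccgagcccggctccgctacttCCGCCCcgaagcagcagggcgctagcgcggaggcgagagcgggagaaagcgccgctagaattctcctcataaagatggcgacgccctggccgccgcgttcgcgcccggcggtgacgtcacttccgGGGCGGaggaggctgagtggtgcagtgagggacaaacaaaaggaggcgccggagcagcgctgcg
LRRC8C: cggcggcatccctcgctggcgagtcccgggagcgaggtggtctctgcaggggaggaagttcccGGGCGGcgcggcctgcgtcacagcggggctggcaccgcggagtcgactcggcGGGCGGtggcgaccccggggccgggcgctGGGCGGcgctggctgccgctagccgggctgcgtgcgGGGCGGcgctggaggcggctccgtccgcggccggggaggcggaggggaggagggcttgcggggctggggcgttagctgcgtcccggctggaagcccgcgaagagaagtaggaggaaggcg
GC content was 82.3% in the window of SLC19A1, 66.7% in that of LRRC8A and 78.0% in that of LRRC8C, against a median of 58.7% over all 35116 windows of the table. They held 4, 2 and 4 GC boxes, and 45.0% of all windows hold at least 1. No TATA box spelled TATAAA (11.5% of all windows), E-box spelled CACGTG (7.26%), CCAAT (34.6%) or core of the interferon-stimulated response element (3.57%) was found in these 3 windows on either strand. Of the 9 genes 8 were in the promoter table, and none of the 8 windows held a TATA box, that E-box or that core. SLC46A3 held 2 CCAAT boxes and no GC box, LRRC8B and LRRC8D held 1 of each, SLC46A1 held 1 GC box and LRRC8E held 4, both without a CCAAT box. These matches are letters in a window and show no binding.

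SLC46A1 (ENSG00000076351, chromosome 17, 28394756 to 28407197) had 121, 122 and 139 counts in vehicle replicates 1, 2 and 4, 114 in vehicle replicate 3, and 115, 118, 146 and 118 with c-di-GMP. The groups overlapped, at 0.01 ± 0.12 on the log2 scale (95% interval -0.22 to 0.24, edgeR adjusted p = 0.961). GC-corrected it was 0.12 ± 0.11 and over all 8 libraries -0.16 ± 0.18. Exons of SARM1 on the opposite strand cover 56.4% of its exonic bases. SARM1 had 25 to 39 counts in the 7 libraries, and the effect of this overlap on the counts of SLC46A1 was not tested. SLC46A3 (ENSG00000139508, chromosome 13, 28700064 to 28718970) had 156, 162 and 159 counts in vehicle replicates 1, 2 and 4, 27 in vehicle replicate 3, and 146, 158, 147 and 157 with c-di-GMP. Apart from vehicle replicate 3 its libraries lay close together and the groups overlapped. The fitted log2 difference was -0.02 ± 0.10 (95% interval -0.21 to 0.17, edgeR adjusted p = 0.909). GC-corrected, all c-di-GMP libraries were below all vehicle libraries, at 8.08 to 8.82 CPM against 9.15 to 9.58 CPM, but its log2 fold change of -0.13 ± 0.10 did not pass (edgeR adjusted p = 0.422). Over all 8 libraries it stood at 0.26 ± 0.35, of the opposite sign. Missing the threshold does not show that either SLC46 gene was unaffected.

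LRRC8A made up most of the LRRC8 transcripts. In deposited FPKM it took 77.4%, 74.8% and 75.5% of the sum of the 5 subunits in vehicle replicates 1, 2 and 4 and 72.9%, 73.4%, 73.8% and 72.9% with c-di-GMP. The share was thus slightly lower in every c-di-GMP library, with means of 75.9% ± 1.32 (SD, n = 3) and 73.2% ± 0.426 (SD, n = 4). LRRC8D took 13.8% to 16.9% in the 7 libraries, LRRC8C 6.02% to 7.90%, LRRC8B 1.79% to 2.90% and LRRC8E 0.674% to 1.17%. The share of LRRC8C was 6.02% to 6.61% with vehicle and 7.04% to 7.90% with c-di-GMP, and these did not overlap either. The shares are parts of one sum, so that those of LRRC8A and LRRC8C are not separate results. By CPM, the groups of the 7 libraries did not overlap for 35.7% of all genes. GC-corrected, the log2 fold changes of LRRC8A and LRRC8C were both 0.01. In vehicle replicate 3 LRRC8A took 41.5% and LRRC8D 39.5%, and the sum of the 5 subunits was 11.8 FPKM, against 41.6 to 46.6 FPKM in the other libraries. These shares are a description, since the genes were chosen with earlier results of these data known, and they are not GC-corrected.

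**Figure D4:**
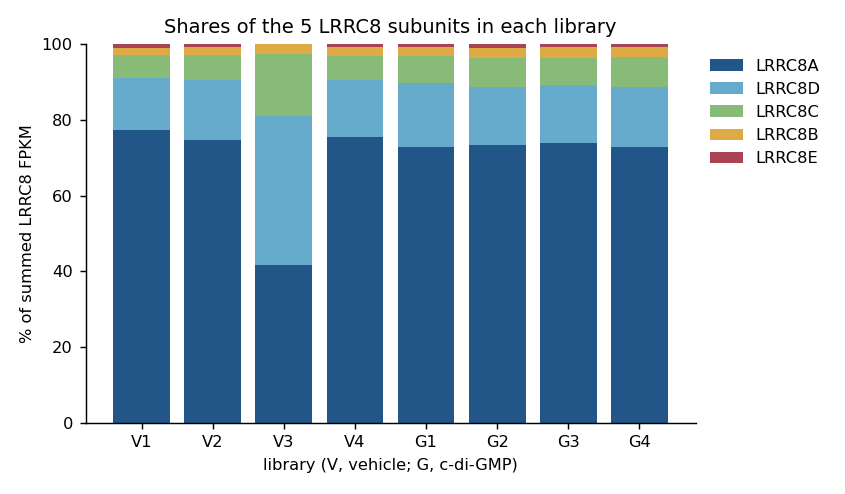
Share of each LRRC8 subunit in the summed FPKM of the 5, in percent, for each vehicle (V1 to V4) and c-di-GMP (G1 to G4) library, as stacked bars. LRRC8A takes 72.9% to 77.4% in 7 libraries and 41.5% in vehicle replicate 3.

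LRRC8A (ENSG00000136802, chromosome 9, 128882112 to 128918039) was the subunit that passed the test in the 7 libraries. It had 3568, 3323 and 3338 counts in vehicle replicates 1, 2 and 4, 2829, 3024, 3173 and 2970 with c-di-GMP, and 297 in vehicle replicate 3. All 4 c-di-GMP libraries were below the other 3 vehicle libraries and far above vehicle replicate 3. The vehicle libraries averaged 192 ± 9.59 CPM (SD, n = 3) and the c-di-GMP libraries 175 ± 4.27 CPM (SD, n = 4), so that LRRC8A fell by 0.14 ± 0.04 (SE) on the log2 scale (edgeR adjusted p = 0.0170). GC-corrected it stood at 0.01 ± 0.03 (95% interval -0.05 to 0.07, edgeR adjusted p = 0.871), and the groups overlapped. Genes of like GC content (57.6%) had a median of -0.15. Over all 8 libraries the value was 0.21 ± 0.51 and of the opposite sign, with vehicle replicate 3 at 297 counts among the vehicle libraries. The uncorrected call was lost without vehicle replicate 1 (-0.10, edgeR adjusted p = 0.0522) and without c-di-GMP replicate 4 (-0.13, edgeR adjusted p = 0.0628).

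The subunits LRRC8B, LRRC8C and LRRC8D lie side by side on chromosome 1, in the order B, C, D on the plus strand, and none was called. LRRC8C (ENSG00000171488, 89633072 to 89769903) had 622, 658 and 647 counts in vehicle replicates 1, 2 and 4 and 612, 714, 698 and 722 with c-di-GMP. After scaling it stood at 35.3 to 37.0 CPM with vehicle and 37.9 to 41.5 CPM with c-di-GMP, so that the groups did not overlap. Its log2 fold change of 0.14 ± 0.06 missed the threshold (edgeR adjusted p = 0.0709) and was 0.01 ± 0.05 GC-corrected and 0.26 ± 0.15 over all 8 libraries. LRRC8B (ENSG00000197147, 89524836 to 89597864) had 130, 140 and 157 counts with vehicle and 139, 165, 196 and 157 with c-di-GMP, and the groups overlapped. Its log2 fold change was 0.25 ± 0.11 (edgeR adjusted p = 0.0944), 0.13 ± 0.11 GC-corrected and 0.49 ± 0.31 over all 8 libraries. The transcripts of these neighbours hold 38.1% and 39.0% GC, and genes of like GC had medians of 0.13 in both cases. LRRC8D (ENSG00000171492, 89821014 to 89936611) had 590, 649 and 610 counts with vehicle and 608, 578, 615 and 600 with c-di-GMP, and the fitted log2 difference was 0.01 ± 0.06 (95% interval -0.11 to 0.13, edgeR adjusted p = 0.930). GC-corrected LRRC8D stood at -0.08 ± 0.06 and over all 8 libraries at 0.12 ± 0.14. In vehicle replicate 3 the counts were 31 for LRRC8B, 260 for LRRC8C and 262 for LRRC8D.

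LRRC8C is paired with a divergent transcript on the minus strand, LRRC8C-DT, whose promoter window shares 275 bases with that of LRRC8C. LRRC8C-DT had 11 to 15 counts in vehicle replicates 1, 2 and 4, 19 in vehicle replicate 3 and 7 to 15 with c-di-GMP. The fitted log2 difference was -0.40 ± 0.36 (edgeR adjusted p = 0.428), and -0.79 ± 0.43 over all 8 libraries, so that it was not called. It overlaps 3.00% of the exonic bases of LRRC8B on the opposite strand. Another gene model on the same strand, AC093423.3, overlaps 2.77% of the exonic bases of LRRC8C and 6.78% of those of LRRC8D.

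LRRC8E (ENSG00000171017, chromosome 19, 7888505 to 7902021) was the least abundant subunit. It had 40, 32 and 29 counts in vehicle replicates 1, 2 and 4, 28, 40, 24 and 30 with c-di-GMP, and 0 in vehicle replicate 3. By library total alone, before TMM scaling, that 0 allows up to 0.178 CPM. The groups overlapped, and its log2 fold change of -0.10 ± 0.23 had an interval from -0.54 to 0.35 (edgeR adjusted p = 0.789). GC-corrected it stood at 0.05 ± 0.22 and over all 8 libraries at 0.28 ± 0.68, both of the opposite sign. An antisense gene, AC010336.1, covers 74.3% of its exonic bases on the opposite strand. The LRRC8 genes are paralogues, but the longest run of identical bases that any pair of their longest transcripts shares was 32 bases, between LRRC8A and LRRC8E, and 21 or fewer for every other pair of subunits.

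The exporter ABCC1 (ENSG00000103222, chromosome 16, 15949577 to 16143074) had 2360, 2252 and 2206 counts in vehicle replicates 1, 2 and 4, 1217 in vehicle replicate 3, and 1885, 2175, 2041 and 1938 with c-di-GMP. After scaling the groups overlapped, since c-di-GMP replicate 2 at 126.4 CPM stood above vehicle replicates 2 and 4 at 124.4 and 126.3 CPM. The vehicle libraries averaged 128 ± 5.09 CPM (SD, n = 3) and the c-di-GMP libraries 117 ± 6.77 CPM (SD, n = 4). ABCC1 fell by 0.13 ± 0.05 on the log2 scale (edgeR adjusted p = 0.0413). After GC correction ABCC1 stood at -0.03 ± 0.04 (edgeR adjusted p = 0.631), while genes of like GC content (54.9%) had a median of -0.10. Over all 8 libraries it was -0.09 ± 0.10. The uncorrected call was lost without vehicle replicate 1 or 4 and without c-di-GMP replicate 1, 3 or 4 (edgeR adjusted p = 0.111, 0.0579, 0.0770, 0.0992 and 0.143), and with DESeq2 (adjusted p = 0.0524).

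**Figure D5:**
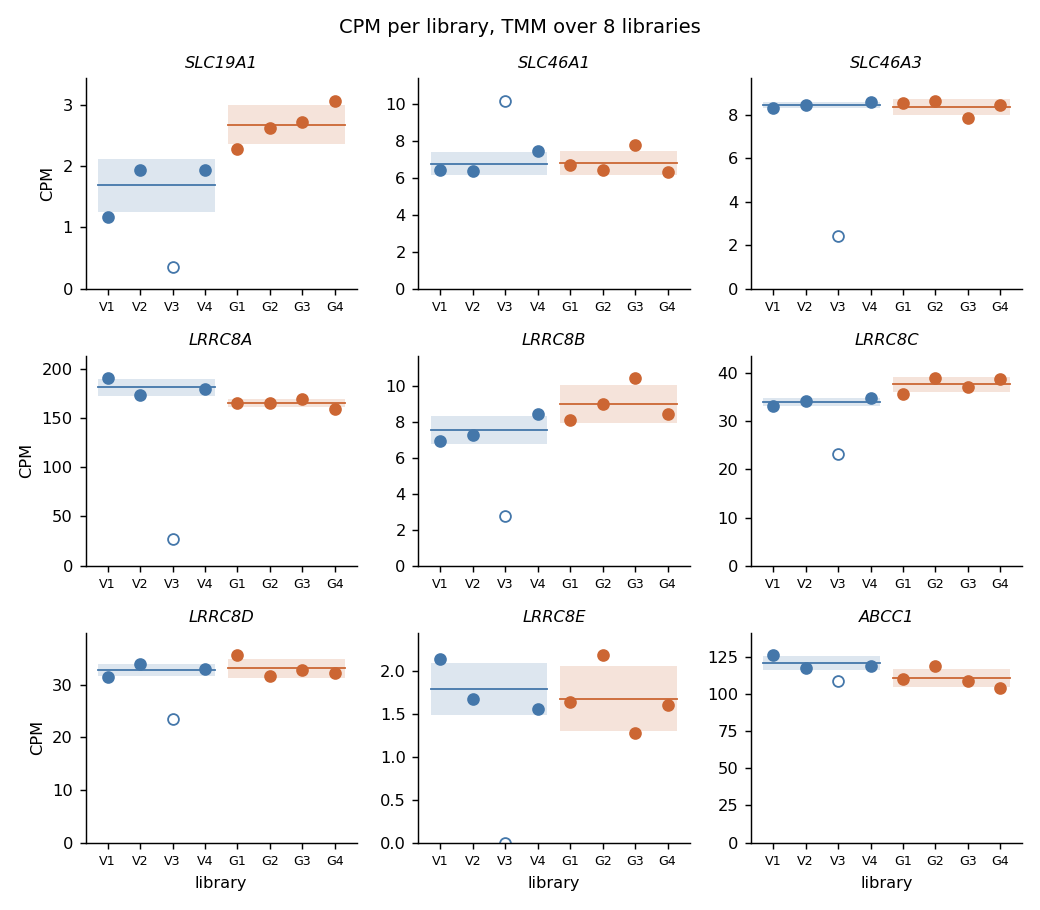
CPM of each of the 9 genes in each library after TMM scaling over all 8 libraries; V is vehicle (blue, vehicle replicate 3 open), G is c-di-GMP (orange), lines are group means without vehicle replicate 3 and bands are 1 SD. The c-di-GMP libraries lie above every vehicle library for SLC19A1 and LRRC8C, and vehicle replicate 3 is the lowest vehicle library for every gene but SLC46A1.

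Other genes of cyclic dinucleotide transfer and breakdown, such as gap junction proteins and the hydrolase ENPP1, were counted against the background of 29.6% called in the 7 libraries (13.5% higher, 16.2% lower) and 15.2% GC-corrected. Of 9 tested, 1 rose and 1 fell in the 7 libraries and 0 were called GC-corrected, with a median log2 fold change of -0.09 (-0.12 GC-corrected), against 0.00140 for all genes (-0.00290). GJA1, which encodes the gap junction protein connexin 43, rose by 0.29 ± 0.10 (0.17 ± 0.09 GC-corrected), and PANX2, a pannexin channel, fell by 0.64 ± 0.18 (-0.26 ± 0.18 GC-corrected; edgeR adjusted p = 0.0267 and 0.00901 before and 0.237 and 0.364 after correction). Of 7 other ABCC transporters tested, 0 rose and 2 fell, and 0 were called GC-corrected, with a median of -0.17 (-0.11 GC-corrected). These were ABCC3, at -0.25 ± 0.06 (-0.14 ± 0.05 GC-corrected), and ABCC10, at -0.20 ± 0.05 (-0.03 ± 0.05 GC-corrected), and both export organic anions or drugs. Of the 5 tested genes that sense cyclic dinucleotides or act just below, TBK1, a kinase, rose by 0.29 ± 0.06 (0.16 ± 0.06 GC-corrected) and the transcription factor IRF3 fell by 0.15 ± 0.05, while GC-corrected it stood slightly above 0, at 0.04 ± 0.04, and was not called. GC-corrected, 1 of these 5 rose, TBK1, and 1 fell, CGAS, the enzyme that makes cyclic GMP-AMP, at -0.19 ± 0.05 (-0.11 ± 0.06 and not called before correction). Over all 8 libraries none of the genes of these lists was called. GJA1 stood there at 0.17 ± 0.15, PANX2 at -0.63 ± 0.21, ABCC3 at -0.10 ± 0.18, TBK1 at 0.50 ± 0.25, IRF3 at -0.81 ± 0.43 and CGAS at -0.31 ± 0.18. ABCC10 stood at 0.17 ± 0.60, of the opposite sign.

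Folate genes were listed because SLC19A1 and SLC46A1 carry folates. Of 22 tested, 5 rose and 3 fell in the 7 libraries, and 4 rose and 1 fell GC-corrected, against 29.6% and 15.2% of all genes called. The median was 0.07 (0.05 GC-corrected), against 0.00140 (-0.00290) for all genes. ATIC, an enzyme of purine synthesis that uses folate, rose by 0.28 ± 0.05 (0.30 ± 0.04 GC-corrected; edgeR adjusted p = 7.23e-05 and 6.88e-06), but over all 8 libraries it stood at -0.35 ± 0.40. FPGS, which adds glutamates that keep folate in the cell, stood at -0.20 ± 0.05 uncorrected and at 0.11 ± 0.04 GC-corrected (edgeR adjusted p = 0.00237 and 0.0408), so that it was called in opposite directions, and at -0.57 ± 0.28 over all 8 libraries. QDPR, a pteridine reductase, also rose GC-corrected, at 0.19 ± 0.06, and over all 8 libraries it stood at -0.85 ± 0.56.

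Genes of cell volume and osmolytes were listed because the LRRC8 channels serve volume regulation. Of 21 tested, 0 rose and 6 fell in the 7 libraries, against 13.5% of all genes higher and 16.2% lower. Only the share called in either direction was near the 29.6% of all genes. GC-corrected, 2 rose and 2 fell, against 8.59% higher and 6.62% lower. The median was 0.05 (-0.02 GC-corrected), against 0.00140 (-0.00290) for all genes, so that the median before correction was above 0 although all 6 called genes fell. The taurine transporter SLC6A6 fell by 0.24 ± 0.05 (-0.21 ± 0.04 GC-corrected; edgeR adjusted p = 3.29e-04 and 2.50e-04), and TTYH3, a membrane protein once proposed as an anion channel, fell by 0.49 ± 0.06 (-0.14 ± 0.04 GC-corrected). The potassium chloride cotransporter SLC12A7, at -0.30 ± 0.08, and the kinase WNK4, at -0.57 ± 0.15, fell before the correction and missed the threshold after it, at -0.07 ± 0.06 and -0.33 ± 0.15. Aldose reductase, AKR1B1, and the chloride channel protein CLIC1 passed the test as higher after the correction and not before it, at 0.15 ± 0.04 and 0.13 ± 0.04. Over all 8 libraries these 2 stood at -0.63 ± 0.44 and -0.61 ± 0.43 and SLC6A6 at 0.10 ± 0.50, each of the opposite sign. TTYH3 stood there at -0.12 ± 0.59, SLC12A7 at -0.12 ± 0.23 and WNK4 at -0.36 ± 0.27.

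The genes whose log2 CPM followed SLC19A1 most closely over the 7 libraries, of 12241 protein-coding genes with a mean of at least 1 CPM, were CTNNB1, SUCLA2 and MAGOHB (Pearson r = 0.998, 0.991 and 0.990). For LRRC8A they were GHDC, ZNF672 and CCDC69 (r = 0.995, 0.994 and 0.992). GC-corrected, SLCO4A1, POLR2F and HLA-C were closest to SLC19A1 (r = 0.994, 0.987 and 0.987) and ZNF672, SLC37A1 and HPSE to LRRC8A (r = 0.978, 0.962 and 0.958). The correlations are a description over 7 libraries that share their depth and GC trend. They were picked as the highest of many values over few libraries, so that high values come partly from this choice. No gene stood in both lists of SLC19A1, and only ZNF672 stood in both lists of LRRC8A.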

How the data were processed

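The deposited tables hold read counts per gene and FPKM per gene for 8 libraries, each table listing 16383 genes, with one column per library and no pooling. The submitters' processing notes name DESeq2 1.20.0, featureCounts 1.5.0-p3, HISAT2 2.0.5, CASAVA 1.8 and fastp, with neither roles nor settings. These notes name the build mm10, but the gene identifiers are human, and all 16383 match the start and end of their gene in GENCODE v29 (GRCh38). Whether counting used strand is not given in the sources used here. The FPKM values were computed by the authors, and only the LRRC8 shares, levels per length, the markers and 2 alternatives use them.

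Genes were kept by filterByExpr at its limits of 10 and 15 counts. The deposited counts then went, with TMM factors, into quasi-likelihood models of edgeR 4.0.16 (R 4.3.3) that held treatment alone, and calls were made at a Benjamini-Hochberg adjusted p under 0.05 over all genes. This was done for 8 libraries and for 7 without vehicle replicate 3. For the GC correction, the deviation of every library from the mean was smoothed by lowess (span 0.3) over transcript GC, and the smooth curve became an offset. The stated intervals are the log2 fold change with 1.96 standard errors on each side. Alternatives were DESeq2 1.42.0, limma-voom and limma on log2 FPKM (limma 3.58.1, pseudocounts 0.1 and 1), other scalings and filters, a replicate block, a length correction and each library left out. The scripts were tested on simulated data. Pairs of libraries differed by more than sampling noise (lowest chi-square over its degrees of freedom, 1.74), and each was counted as 1 sample. By this measure vehicle replicates 1 and 2 differed by 7.25, and vehicle replicate 2 differed from the c-di-GMP libraries by 5.84 to 7.20. Vehicle replicate 4 differed from vehicle replicates 1 and 2 by 4.50 and 2.70.

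The 9 genes and the lists were chosen with earlier results of these data known. The text names all 9 genes, of each other list up to 4 called genes with the smallest p in the 7 libraries, and for SLC19A1 and LRRC8A the 3 genes with the most similar pattern. Some genes that this rule names are not reported here. Genes that overlap the 9, CGAS, QDPR, AKR1B1 and CLIC1 were named after their values were seen. Leaving out libraries under GC correction was added after seeing the data.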

Additional observations from a re-analysis of the deposited data

Results flagged for a closer look

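For each of the 9 genes the 4 CPM values of a group were searched for a library far from the others, which chance gives for about 1 in 20 groups. Of 18 groups, 3 were marked, all vehicle groups and all by vehicle replicate 3. That library was already known to stand apart, and all vehicle groups share it. The groups are therefore not independent, and the marks cannot be set against the chance rate. The gap to the nearest other library took 0.962 of the whole range for SLC46A3 (2.41 CPM against 8.33 to 8.57), 0.895 for LRRC8A (26.6 CPM against 173 to 191) and 0.859 for LRRC8C (23.2 CPM against 33.2 to 34.9), where 0.829 is the critical value for 4 samples.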

How the results depend on the processing

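Of 500 alternative values, 435 were marked as the same. For a fold change this means the same direction and side of the threshold, and for a count of called genes within 1.5 times of it. The ranks of genes by level per length, which have no threshold, are among the 500, and 0 of them moved. Levels from counts and from FPKM differ almost only by a factor per library, so that their ranks could hardly differ. Another 30 changed sign, among them LRRC8A under GC correction, which also lost its call. The cause of these changes was not tested. With all 8 libraries DESeq2 called 106 genes where edgeR called 0. Leaving out 1 library gave 0 to 4633 genes and 0 to 3 of the 9, the upper values being those without vehicle replicate 3. Over the same leave-outs the log2 fold change ran from -0.22 to 0.0096 for SLC46A1, -0.019 to 0.37 for SLC46A3, -0.14 to 0.38 for LRRC8A and -0.096 to 0.57 for LRRC8E. Scaling by library totals without TMM gave 0.031 for SLC46A1 and 0.037 for ABCC1 with 8 libraries.

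With 7 libraries the 4633 called genes became 2379 after GC correction, 2097 after GC and length correction and 1599 with the replicate block and GC correction, and each of these fits called 1 of the 9, SLC19A1. Limma on log2 FPKM, which does not list SLC19A1, called 0 of the 8 with either pseudocount. In the order of these 3 corrections, LRRC8A stood at 0.011, 0.014 and 0.0028, LRRC8D at -0.0839, -0.0845 and -0.0836, and LRRC8E at 0.053, 0.045 and 0.17. Leaving out 1 of the 7 libraries gave 0 to 3 of the 9 called, with 0 without vehicle replicate 1 and without c-di-GMP replicate 4. The log2 fold change then ran from -0.061 to 0.085 for SLC46A1, -0.037 to 0.012 for SLC46A3, -0.033 to 0.032 for LRRC8D and -0.25 to 0.051 for LRRC8E. GC-corrected, leaving out 1 library gave 1476 to 2638 called genes, 1476 without vehicle replicate 1 and 1551 without vehicle replicate 4, and ran from -0.0041 to 0.035 for LRRC8C and -0.11 to 0.17 for LRRC8E.

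Libraries with the same replicate number were only weakly correlated (r = 0.04, 0.00019 and 0.04 in the 7 libraries). Vehicle replicates 1 and 4 correlated best with their own number, and vehicle replicate 2 did not. With all 8 libraries the values were 0.0051, 0.22, 0.14 and -0.060 for replicates 1 to 4. These values do not decide whether the libraries were paired. With the replicate block 4093 genes and 2 of the 9 were called, ABCC1 being lost (edgeR adjusted p = 0.0795), and SLC46A1 stood at -0.060, SLC46A3 at 0.012 and LRRC8E at 0.020. The stricter filter left SLC19A1 and LRRC8E untested. SLC19A1 had 22 to 57 counts and LRRC8E 24 to 40 in the 7 libraries, the lowest of the 9, and counting error is largest for these.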
